A study of Homo sapiens with 2 samples.

Results

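Metallothionein genes and the machinery that senses and exports zinc were examined in the RNAseq of cisplatin treated control and FZR1 ko cells. Bulk RNA was measured, so fewer cells with a transcript and less of it per cell cannot be told apart. The set holds 8 genes named by symbol. They are the metallothioneins MT1E, MT1F, MT1G, MT1M, MT1X and MT2A, the transcription factor MTF1 and the zinc exporter SLC30A1. All 8 have a row among the 24663 rows of the deposited table, 6 have a value, and 5 reached 1 FPKM in either library. FPKM counts sequenced fragments per kilobase of transcript, relative to all mapped fragments. The rows of MT1G and MT1M are empty in both libraries, and MT1F stayed under 1 FPKM in both.

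Metallothioneins are small proteins rich in cysteine that bind zinc and copper, and also bind toxic metals such as cadmium and platinum. Their genes are switched on by metal. Zinc bound to MTF1, a zinc finger factor, lets it occupy metal response elements in their promoters and in that of SLC30A1, which pumps zinc out of the cell. Glucocorticoids and oxidative stress also induce several of these genes, and high metallothionein levels are a known feature of some cells that tolerate cisplatin.

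There was 1 control library (genotype WT) and 1 FZR1 ko library, labelled T-47D, a breast cancer line of luminal type, and both treated with 2 µg/ml cisplatin. The duration is not given in the sources used here. The ko line was made with lentiviral CRISPR/Cas9 and grown from a single cell, so it stands for 1 clone, and both groups carry the drug. With 1 library per group no difference below has a replicate check, no test was made, and "higher" and "lower" describe these 2 libraries. FZR1 itself had 12.3 FPKM in control against 10.1 FPKM in FZR1 ko (log2 ratio -0.26), a check that settles nothing where the edit leaves the transcript intact. The design text of the series speaks of 2 cell lines, while both libraries carry the label T-47D, and this was not resolved here. The labelled cell type was not borne out by its defining luminal markers ESR1, PGR, GATA3 and CDH1, all under 1 FPKM in both libraries. Of 14 luminal markers, 6 reached 1 FPKM in either library, 3 with the lower and 3 with the higher value in FZR1 ko. ESR1 (0.04 FPKM in control against 0.13 FPKM in FZR1 ko), GATA3 (0.31 and 0.15 FPKM) and CDH1 (0.69 and 0.62 FPKM) were near 0, PGR was at 0.01 FPKM in control but listed at 0 in FZR1 ko, while VIM, a mesenchymal filament, had 315 and 295 FPKM. The luminal keratins KRT8 (829 and 998 FPKM) and KRT18 (552 and 740 FPKM) were the most abundant of the luminal list, and XBP1 had 93.4 and 72.6 FPKM. Of 10 mesenchymal and basal markers, 7 reached 1 FPKM in either library, of which 3 had the lower and 4 the higher value in FZR1 ko. CDH2 (2.97 and 15.3 FPKM) and AXL (16.02 and 37.84 FPKM) were at least 2-fold higher, as were 6.78% of all genes compared, and SNAI2 (7.05 and 3.86 FPKM) had the lowest log2 ratio of the list (-0.73). The summed FPKM of that list was 369 in control and 394 in FZR1 ko, and of the luminal list 1499 and 1834, sums made up mostly of VIM in the first and of KRT8 and KRT18 in the second. The part of these markers in the values below was not tested.

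The metallothionein genes lie side by side on chromosome 16 (GRCh38.p14, chr16:56565073-56684196). This stretch of 119 kb holds 16 of the metallothionein genes and pseudogenes looked up, from MT4 to MT1X. In the GENCODE 44 annotation of hg38 the main transcript of MT2A (chr16:56608584-56609497, plus strand) has 3 exons and 401 bases, and that of MT1X (chr16:56682470-56684196, plus strand) has 3 exons and 404 bases. The main transcript listed for MT1E (chr16:56625781-56627112, plus strand) has 2 exons and 746 bases, with 332 bases in its shortest basic transcript. MT1F (chr16:56657959-56659303), MT1M (chr16:56632659-56633981) and MT1G (chr16:56666730-56668065, minus strand) each have 3 exons. MTF1 (chr1:37809574-37859592) and SLC30A1 (chr1:211571568-211579161) lie on the minus strand of chromosome 1, with 11 and 2 exons.

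The promoters are shown because MTF1 acts through them. A promoter was present in the RefSeq table (GRCh38.p14) for 4 of the 8 genes (MT2A, MT1X, SLC30A1 and MTF1), and the promoters of MT1E, MT1F, MT1G and MT1M were not used here. The 250 bases before the transcription start were searched on both strands for the core of the metal response element, written TGCACNC or TGCGCNC. Below, MT2A is chr16:56608334-56608583, MT1X chr16:56682220-56682469 and MT1H, a metallothionein listed at 0 in both libraries, chr16:56669564-56669813, all on the plus strand. SLC30A1 is chr1:211579162-211579411 on the minus strand. Capitals mark matches of the core, in either orientation.
MT2A: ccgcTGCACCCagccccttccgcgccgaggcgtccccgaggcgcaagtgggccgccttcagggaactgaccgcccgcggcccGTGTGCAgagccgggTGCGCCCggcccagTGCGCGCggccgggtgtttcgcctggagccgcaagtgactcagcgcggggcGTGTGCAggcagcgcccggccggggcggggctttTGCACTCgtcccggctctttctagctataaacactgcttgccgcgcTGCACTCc
MT1X: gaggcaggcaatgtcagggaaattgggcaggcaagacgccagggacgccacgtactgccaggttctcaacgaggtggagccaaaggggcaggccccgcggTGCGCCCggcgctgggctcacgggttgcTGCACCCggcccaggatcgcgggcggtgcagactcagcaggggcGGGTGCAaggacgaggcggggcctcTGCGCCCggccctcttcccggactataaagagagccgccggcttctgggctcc
MT1H: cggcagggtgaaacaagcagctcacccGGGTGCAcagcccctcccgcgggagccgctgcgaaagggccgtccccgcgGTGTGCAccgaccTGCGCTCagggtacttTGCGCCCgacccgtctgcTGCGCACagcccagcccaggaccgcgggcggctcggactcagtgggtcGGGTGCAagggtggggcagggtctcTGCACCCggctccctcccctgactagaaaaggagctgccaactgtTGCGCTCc
SLC30A1: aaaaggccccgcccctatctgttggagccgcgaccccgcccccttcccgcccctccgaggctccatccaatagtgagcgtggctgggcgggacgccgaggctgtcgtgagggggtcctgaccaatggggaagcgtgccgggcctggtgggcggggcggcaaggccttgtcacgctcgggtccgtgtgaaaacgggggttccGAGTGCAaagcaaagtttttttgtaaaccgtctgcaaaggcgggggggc

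MT2A held 7 matches, 5 on the sense strand and 2 on the antisense strand. MT1X held 4, SLC30A1 held 1 on the antisense strand, and the MTF1 window (chr1:37859593-37859842) held 0. Among the other metallothionein genes MT1H held 8, and MT1B and MT4 each held 3. No matches overlapped within a window. In the whole table of 35116 promoters, 24.8% held at least 1 match, 0.370% held at least 4 and 0.0313% (11 promoters) held at least 7. The match closest to the MT1X start began at base -53 on the sense strand, with an antisense match at -78. MT1H had matches at the same positions, and MT1B had them at -53 and -79. MT2A had a sense match at -54. The number of matches did not order the levels given below, since MT1H had the most and was listed at 0. A match is a description of the letters and not of binding.

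**Figure D1:**
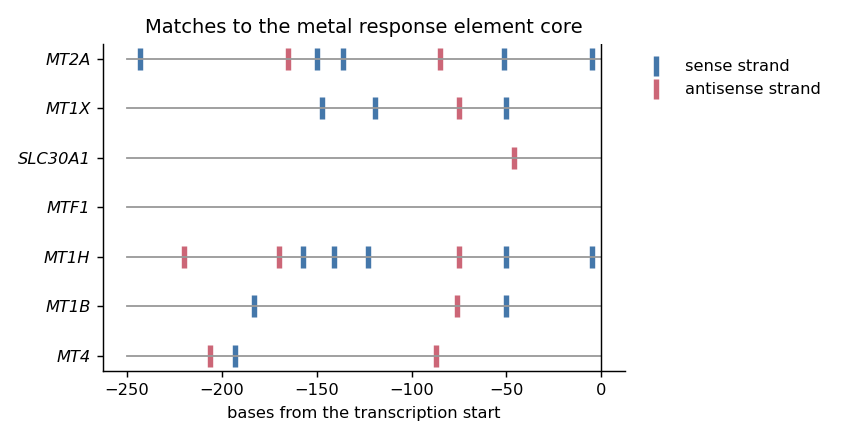
Positions of matches to the metal response element core in the 250 bases before the transcription start (x axis, bases; start at 0) of the 7 genes with a promoter in the table; each tick is 1 match, blue on the sense and red on the antisense strand of the gene. MT2A has 7 and MT1H 8 matches, MT1X has 4, SLC30A1 has 1 and MTF1 has 0.

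MT2A, the most abundant metallothionein of most human cells, was the highest of the 6 genes with a value in both libraries. It had 131 FPKM in control against 114 FPKM in FZR1 ko. These levels were as high as or higher than those of 97.2% of the 23033 genes with a value in control and 97.0% in FZR1 ko. The log2 ratio, taken throughout as log2 of FPKM + 1 in FZR1 ko over FPKM + 1 in control, was -0.19. The added 1 FPKM shrinks the ratio of genes with low values.

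Of the 6 genes with a value, MT1E alone was higher in FZR1 ko. It had 21.4 FPKM in control against 64.4 FPKM in FZR1 ko, 3.01-fold higher, with a log2 ratio of 1.55. Its rank moved from 81.9% to 94.0% of the genes with a value. Of the 13554 genes that reached 1 FPKM in either library, 195 (1.44%) were higher in FZR1 ko by at least as much.

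MT1X went the other way. It had 18.1 FPKM in control against 8.65 FPKM in FZR1 ko, 2.09-fold lower, with a log2 ratio of -0.98. In control MT1E and MT1X lay close together, with 1.18 FPKM of MT1E for each FPKM of MT1X, and in FZR1 ko this ratio was 7.44. A fall as large as that of MT1X was found in 944 genes (6.96% of those compared).

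MT1F had 0.72 FPKM in control against 0.12 FPKM in FZR1 ko. Both values are low, and MT1F was left out of the counts of genes compared. MT1G and MT1M, which are induced by metal in many cells, have no value here, and an empty row is not read as a level of 0.

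MTF1, the sensor, had 6.63 FPKM in control against 3.42 FPKM in FZR1 ko, 1.94-fold lower, with a log2 ratio of -0.79. A fall at least this large was seen in 1465 genes (10.8% of those compared). SLC30A1, its target at the plasma membrane, had 49.7 FPKM in control against 33.5 FPKM in FZR1 ko, 1.48-fold lower, with a log2 ratio of -0.56. The sensor and the exporter thus both had the lower value in FZR1 ko, as did MT2A and MT1X.

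**Figure D2:**
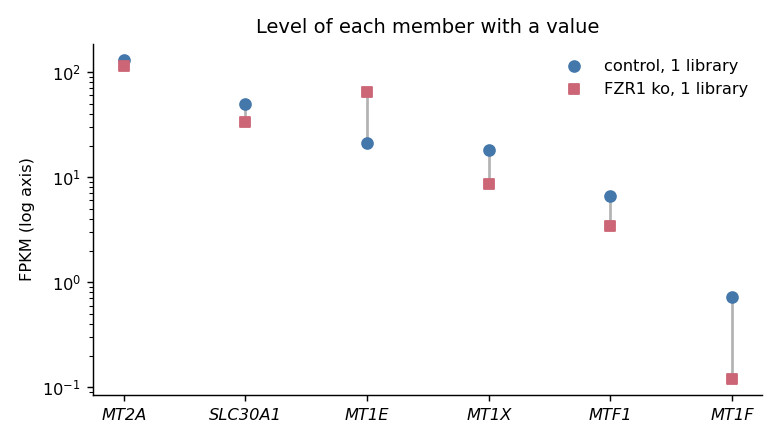
FPKM (y axis, log scale) of the 6 genes with a value in control (circles) and FZR1 ko (squares), 1 library each, with a line joining the pair. MT1E goes from 21.4 to 64.4 FPKM and is the only gene whose square lies above its circle.

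In all, 5 genes could be compared, of which 4 were lower and 1 was higher in FZR1 ko. MT1E alone was at least 2-fold higher and 0 genes were at least 2-fold lower on the log2(FPKM + 1) scale, and no tool gave a p-value. Over all 13554 genes compared, 13.5% differed at least 2-fold, 6.72% being lower and 6.78% higher in FZR1 ko. The median log2 ratio of the 5 genes was -0.56, against -0.0048 over all genes compared, of which 6812 (50.3%) were lower. MT1X lay just short of the 2-fold line and crossed it with a pseudocount of 0.1 FPKM, with none, or with FPKM rescaled to TPM, so 1 gene was then at least 2-fold lower.

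**Figure D3:**
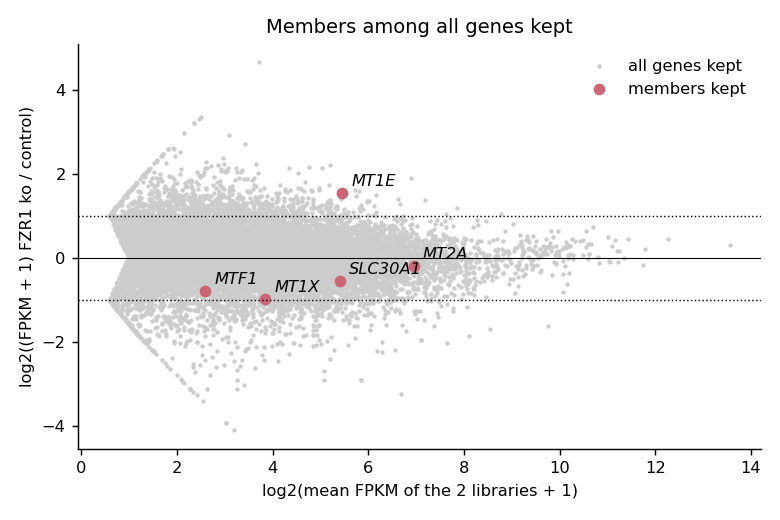
Log2 ratio of FZR1 ko to control on the log2(FPKM + 1) scale (y axis) against log2 of the mean FPKM + 1 of the 2 libraries (x axis) for the 13554 genes compared (grey) and the 5 genes of the set among them (red); dotted lines mark 2-fold. MT1E lies above the upper line at 1.55, and MT1X lies beside the lower line at -0.98.

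The file holds no counts, but the number of fragments behind a value can be approximated. Where a short RNA gene was hit by 1 fragment, its value shows what 1 fragment is worth at that length. Small nucleolar RNA and microRNA genes of 60 to 150 bases placed the libraries at about 16900000 fragments in control and 17200000 in FZR1 ko. Of these genes with a value above 0, 138 of 407 in control and 116 of 378 in FZR1 ko lay within 2% of the fitted worth of 1 fragment. The others did not and were not used to set it, so the numbers below are approximate. With the shortest basic transcript of each gene, MT1E would rest on about 107 fragments in control and 329 in FZR1 ko. MT1X would rest on about 112 and 55, and MT2A on about 805 and 720. The 95% counting interval (Clopper-Pearson) of the FZR1 ko to control ratio then ran from 2.42 to 3.79 for MT1E, from 0.340 to 0.666 for MT1X and from 0.791 to 0.970 for MT2A. For MTF1, with about 885 and 466 fragments, it ran from 0.460 to 0.578, and for SLC30A1 from 0.645 to 0.704. MT1F would rest on about 5 fragments in control and 1 in FZR1 ko, and its ratio of 0.167 had an interval from 0.0035 to 1.49, so a difference was not detectable at this depth. These intervals cover counting error between the 2 libraries only, and say nothing of the spread between cultures.

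The metallothioneins were also read as 1 pool, since their proteins have similar metal binding and their transcripts resemble each other. The 9 metallothionein rows with a value together held 171 FPKM in control against 188 FPKM in FZR1 ko (log2 ratio 0.14). Its makeup differed more than its size. MT2A made up 76.4% of it in control and 60.9% in FZR1 ko. MT1E made up 12.5% and 34.3%, and MT1X 10.6% and 4.60%. The 43.0 FPKM gained by MT1E exceeded the 25.6 FPKM lost by MT2A and MT1X together. Without MT1E the pool went from 149.6 to 123.5 FPKM, a log2 ratio of -0.27.

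**Figure D4:**
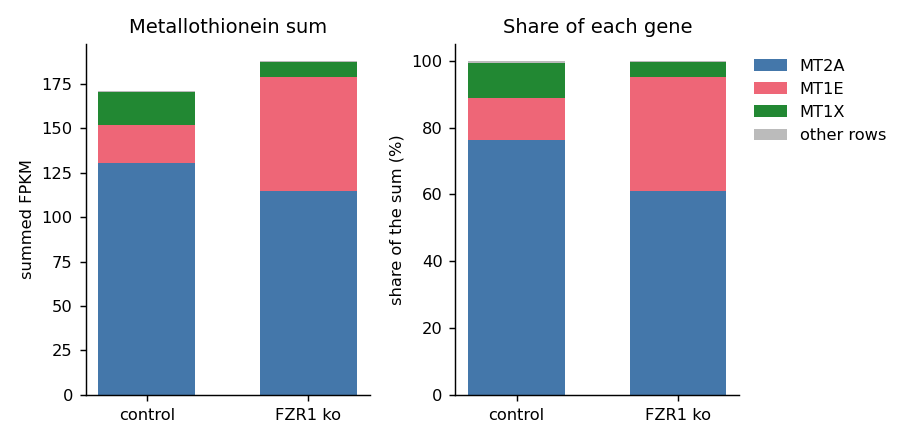
Left, summed FPKM of the 9 metallothionein rows with a value in control and FZR1 ko (1 library each), stacked by gene; right, the same as a share of the sum in percent. The sum is 171 FPKM in control against 188 FPKM in FZR1 ko, and the MT1E share is 12.5% and 34.3%.

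Similar genes can share reads, which RSEM then divides among them by estimate. In the GENCODE 44 transcripts, 10.3% of the stretches of 50 bases in the main MT1E transcript also occur in another metallothionein gene. The share was 18.0% for MT1X, 6.12% for MT1F and 4.55% for MT2A. The main transcript has 746 bases for MT1E, against 404 for MT1X and 401 for MT2A, so these shares rest on unlike lengths. For the MT1E form of 332 bases, used for the fragment numbers, no share was computed. Over stretches of 100 bases it was 0 for all 4 genes. The gene that shared most with MT1X was MT1G (13.2% of stretches of 50 bases), which has no value in the table. The part of shared reads in the MT1E and MT1X values was not tested.

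Of the 12 other metallothionein genes and pseudogenes looked up, 10 have a row, 5 have a value and none reached 1 FPKM in either library. MT1H, MT1L and MT4 were listed at 0 in both libraries. The pseudogene MT1DP had 0.13 FPKM in control against 0.34 FPKM in FZR1 ko, and the pseudogene MT1JP had 0.13 FPKM in control but was listed at 0 in the other library. MT1A, MT1B, MT1HL1, MT1IP and MT3 have an empty row, and MT1CP and MT1XP1 have none. Among the 9 metallothionein rows with a value, nearly all of the summed FPKM was that of MT2A, MT1E and MT1X. The level of the genes with no value is not known here.

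The genes around the cluster showed no common direction. Within 500 kb of its ends 10 further genes could be compared, 5 lower and 5 higher in FZR1 ko. Their median log2 ratio was -0.17, or 0.058 with genes under 1 FPKM included. Over all genes compared, 50.3% were lower and 13.5% were past 2-fold. NUDT21, a factor of mRNA 3' end processing 114 kb before the cluster, had 45.0 and 31.1 FPKM in control and FZR1 ko. OGFOD1, also before it, had 48.3 and 28.0 FPKM. The only neighbour past 2-fold was SLC12A3, a sodium chloride cotransporter gene 181 kb beyond MT1X, with 1.58 FPKM in control against 10.9 FPKM in FZR1 ko (log2 ratio 2.21). The nearest genes compared, BBS2 (4.91 and 5.66 FPKM) and NUP93 (18.0 and 27.6 FPKM), which were picked after their values were seen, lay 45.0 kb before and 45.9 kb beyond the cluster.

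The remaining zinc transporters move zinc out of the cytosol (SLC30 genes) or into it (SLC39 genes). Of 24 such genes beside SLC30A1, the vesicular TMEM163 included, 16 could be compared. Of these, 10 had the lower and 6 the higher value in FZR1 ko, against 50.3% lower over all genes compared. On the log2(FPKM + 1) scale 0 were past 2-fold, against 13.5% of all genes compared. This count was 2 with a pseudocount of 0.1 FPKM, and 1 with FPKM rescaled to TPM or with no pseudocount. The median log2 ratio was -0.11, or -0.036 with genes under 1 FPKM included. The most abundant were importers. SLC39A1, at the cell surface, had 331 FPKM in control against 220 FPKM in FZR1 ko (log2 ratio -0.59), and SLC39A7, which releases zinc from the endoplasmic reticulum, had 127 and 111 FPKM (-0.19). The widest differences in the list, picked after the values were seen, were those of SLC39A10 and SLC30A4. SLC39A10, an importer that MTF1 is known to repress, had 5.13 FPKM in control against 10.9 FPKM in FZR1 ko (0.96). SLC30A4, an exporter into vesicles, had 2.16 and 0.94 FPKM (-0.70).

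Besides MTF1, 8 factors known to act on metallothionein promoters were compared. In FZR1 ko 3 were lower and 5 were higher, 0 past 2-fold, with a median log2 ratio of 0.07. Among all genes compared, 50.3% were lower and 13.5% past 2-fold. USF1 had 52.2 FPKM in control against 30.5 FPKM in FZR1 ko (-0.76), and its partner USF2 had 43.7 and 47.9 FPKM (0.13). NR3C1, the glucocorticoid receptor, had the highest log2 ratio of the list (5.28 and 10.5 FPKM, 0.87) and was picked after its value was seen.

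Of 16 genes of the response to heavy metals and damaged proteins, 15 could be compared. In FZR1 ko 10 were lower and 5 higher, against 50.3% lower over all genes compared. None was past 2-fold, against 13.5% of all genes compared, and the median log2 ratio was -0.37. HSPA8, the constitutive HSP70 chaperone, had 468 FPKM in control against 497 FPKM in FZR1 ko (0.09). HSPA1A, an inducible HSP70, had 366 and 220 FPKM (-0.73), and its near-identical copy HSPA1B, with which it may share reads, had 247 and 160 FPKM (-0.62). DNAJB1 (161 and 96.4 FPKM, -0.74) and BAG3 (45.9 and 27.2 FPKM, -0.74), cochaperones of HSP70, were the lowest of the list and were picked after their values were seen. HMOX1, the heme oxygenase induced by cadmium, had 22.7 and 16.8 FPKM (-0.42).

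Genes that handle iron, another metal, were taken for comparison. Of 12 genes 10 could be compared, with 4 lower and 6 higher in FZR1 ko, 0 past 2-fold, and a median log2 ratio of 0.25, or 0.040 with genes under 1 FPKM included. The ferritin chains FTH1 (4180 FPKM in control against 5725 FPKM in FZR1 ko, 0.45) and FTL (1897 and 1751 FPKM, -0.12) were the most abundant. NCOA4, which delivers ferritin to lysosomes, had 192 and 102 FPKM (-0.91), and STEAP3, an endosomal ferrireductase, had 14.5 and 28.2 FPKM (0.91), both picked after their values were seen. The medians of these lists differed from that of the metallothionein set without a test of any difference between them.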

How the data were processed

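RNAseq of 1 control and 1 FZR1 ko library, treated with cisplatin, was analysed. The authors sequenced total RNA on the BGISEQ-500 platform, used Bowtie2 and RSEM with the hg38 transcriptome, and deposited FPKM per Entrez gene ID to 2 decimals. The version of the annotation is not given in the sources used here, and the submitters' processing notes also name Trimmomatic 0.36, HISAT2 2.1.0 and Bowtie2 2.2.5. Of 24663 rows 1630 are empty, and 22925 (99.5%) of the other 23033 matched a RefSeq symbol (GRCh38.p14). The table has 0 unused columns of values.

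Log2 ratios of FPKM + 1 were computed for genes reaching 1 FPKM in either library, with 2-fold as threshold and no test, and the computation was checked on simulated data. The fragment number behind a value was fitted from short RNA genes and is approximate. It assumes 1 transcript length per gene. The genes, lists and alternatives were chosen with earlier results of these data known. Named genes were the 8 genes, all other metallothioneins, FZR1, 5 cell type markers, and of each further list the 2 most abundant and those past 2-fold; others are marked as picked later. HMOX1, HSPA1B, XBP1 and SNAI2 were also picked later. Python 3.11.15, numpy 2.4.6, pandas 2.3.3, scipy 1.17.1 and matplotlib 3.10.9 were used.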

Additional observations from a re-analysis of the deposited data

How the results depend on the processing

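No paired analysis was possible because there was a single library in each group and nothing was tested, and no library could be left out. A value was taken to have moved when it changed by over 1.5-fold or its median changed sign. For log2 ratios and their medians, the 1.5-fold refers to the ratio itself and not to its log2. The direction of each of the 5 genes compared was the same under every alternative run for it. MT1E ranged from 1.40 to 1.59, MT1X from -1.06 to -0.76, MT2A from -0.19 to -0.18, MTF1 from -0.96 to -0.47 and SLC30A1 from -0.57 to -0.51 on the log2 scale. Of 117 other values, 103 stayed and 14 moved. With a pseudocount of 0.1 FPKM, with FPKM rescaled to TPM, and with no pseudocount among genes of 1 FPKM in both libraries (chosen after the data were seen), 2 genes of the set in place of 1 were past 2-fold, the added 1 being MT1X, lower in FZR1 ko. Rescaling enlarges every value against the pseudocount. Under the same 3 settings 2, 1 and 1 zinc transporters were past 2-fold in place of 0. At a 4-fold threshold, or with the metallothioneins as 1 sum, 0 genes of the set passed, since the highest ratio, that of MT1E, lay under 4-fold, and the sum (0.14), MTF1 and SLC30A1 lay inside 2-fold. Without a filter on low values the median of the cluster neighbours was 0.058 in place of -0.17, as 4 more genes entered. Other metallothionein genes gave no median, as none reached 1 FPKM. The approximate depth limits MT1F most.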
